A study of Mus musculus with 4 samples.

Results

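The cytochrome P450 genes are the genes whose symbol is Cyp followed by a number, a letter and a number, such as Cyp2f2. Cyp11a1, Cyp17a1 and Cyp19a1, the steroid-synthesis P450s of the ovary, were left out by the rule. In all 86 such genes, each read by 1 probe set, were found among 30566 genes measured on the arrays. A further 5 P450 symbols known to RefSeq had no probe set of their own, because the annotation lists more than 1 gene for the probe set that reads them. Genes with a closing letter or a pseudogene suffix, such as Cyp4a12a, are not members and are named as such below.

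P450 enzymes are haem proteins of the endoplasmic reticulum and mitochondria that insert oxygen into small molecules, using electrons passed on by a reductase. The families with low numbers mostly oxidise foreign compounds and fatty acids, and the families with high numbers make or break down sterols, bile acids, vitamin D, retinoic acid and steroid hormones. In the airway they are known from the club cell, a secretory cell that turns inhaled chemicals into reactive products, and Cyp2f2, which oxidises naphthalene, is a marker of that cell.

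The study measured total RNA of freshly dissected trachea and oviduct from mice of a mixed C57BL/6 x 129 background, wild type (WT) or labelled null for Gemc1, a gene needed for multiciliated cells. The tracheas came from males of 39 days and the oviducts from females of 65 days, untreated, so that tissue, sex and age cannot be told apart. There was 1 Affymetrix array for each of the 4 groups, that is, for each genotype in each tissue. The labels do not say which part of the gene is deleted, or how many animals gave the RNA of an array.

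Levels are log2 RMA signals, and a difference within a tissue is the level on the null-labelled array less that in WT. With 1 array per group a difference between 2 arrays has no replicate check, no error and no p-value, and precision is limited by how few arrays there are. A gene passed the level filter of a comparison when it reached, on at least 1 of the 2 arrays, that array's median probe set level, 5.91 to 6.00. The median of 5222 negative-control probe sets, 5.74 to 5.98, served as the background level. Where the dimmer array lay below it, a fold is given as "at least", with that median in place of the measured level. The probe set of Gmnc, the current symbol of Gemc1, read 5.90 in WT trachea and 4.63 on the trachea array labelled null. Both readings lay below the negative-control medians of their arrays, 5.98 and 5.74, and the gene did not pass the level filter in trachea. In oviduct the Gmnc probe set read 6.11 and 8.86, higher on the array labelled null, so that each direction here rests on the labels.

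Markers of the 2 tissues were checked. Airway secretory genes had a mean level of 11.3 in WT trachea and 7.04 in WT oviduct, and genes of multiciliated cells 8.83 and 9.32. The trachea array labelled null carried high skeletal muscle genes (mean level 12.0 against 6.69 in WT) and squamous epithelium genes (11.6 against 5.31), and the WT oviduct array carried ovary somatic cell genes (8.90 against 6.16 on the array labelled null). In whole tissue, fewer cells of a type and less RNA per cell cannot be told apart.

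The upstream sequences of some of the P450 genes named below are shown first. They are the 250 bases before the annotated start, in RefSeq's promoter table for GRCm38.p6, which held 66 of the 86 members. Capitals mark every match, on either strand, to 6 short motifs: TATAAA (the TATA box), GGGCGG (the GC box), GCGTG (the core bound by the aryl hydrocarbon receptor), AGGTCA (a nuclear receptor half-site), TGTTTAC (a forkhead core) and CAAGTG (a core of homeodomain factors of the airway). The first set holds Cyp2f2 and 3 genes that, like it, were lower in trachea on the array labelled null and higher in WT trachea than in WT oviduct. Cyp2e1 and Cyp4f18 had the same pattern and are not printed.
Cyp2f2 (chr7:27119705-27119954, strand +): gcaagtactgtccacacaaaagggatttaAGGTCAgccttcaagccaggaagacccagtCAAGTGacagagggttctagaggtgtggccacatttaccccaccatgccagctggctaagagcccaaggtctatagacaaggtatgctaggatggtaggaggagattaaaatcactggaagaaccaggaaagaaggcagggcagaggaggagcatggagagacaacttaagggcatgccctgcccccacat
Cyp2a4 (chr7:26306942-26307191, strand +): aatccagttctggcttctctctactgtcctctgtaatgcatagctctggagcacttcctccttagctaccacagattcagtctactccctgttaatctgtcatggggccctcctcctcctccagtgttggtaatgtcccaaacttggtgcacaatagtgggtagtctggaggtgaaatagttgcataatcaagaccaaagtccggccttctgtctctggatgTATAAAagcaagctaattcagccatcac
Cyp2b10 (chr7:25897408-25897657, strand +): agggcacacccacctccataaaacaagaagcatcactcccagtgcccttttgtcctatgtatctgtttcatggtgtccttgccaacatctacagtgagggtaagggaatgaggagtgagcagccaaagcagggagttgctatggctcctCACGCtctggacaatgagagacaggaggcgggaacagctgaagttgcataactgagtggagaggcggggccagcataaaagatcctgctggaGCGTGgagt
Cyp4b1 (chr4:115647722-115647971, strand -): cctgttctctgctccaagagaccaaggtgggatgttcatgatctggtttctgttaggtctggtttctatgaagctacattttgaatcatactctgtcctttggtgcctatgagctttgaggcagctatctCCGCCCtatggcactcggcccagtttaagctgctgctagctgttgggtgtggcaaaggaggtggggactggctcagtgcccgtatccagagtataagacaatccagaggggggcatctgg

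The second set is a pair of neighbouring, closely related genes that were higher in trachea on the array labelled null.
Cyp2c65 (chr19:39060756-39061005, strand +): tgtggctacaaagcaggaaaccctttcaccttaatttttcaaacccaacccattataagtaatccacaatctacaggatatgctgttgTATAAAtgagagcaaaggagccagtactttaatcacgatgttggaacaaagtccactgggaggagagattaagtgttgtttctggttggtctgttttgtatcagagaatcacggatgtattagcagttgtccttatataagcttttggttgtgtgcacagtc
Cyp2c66 (chr19:39113648-39113897, strand +): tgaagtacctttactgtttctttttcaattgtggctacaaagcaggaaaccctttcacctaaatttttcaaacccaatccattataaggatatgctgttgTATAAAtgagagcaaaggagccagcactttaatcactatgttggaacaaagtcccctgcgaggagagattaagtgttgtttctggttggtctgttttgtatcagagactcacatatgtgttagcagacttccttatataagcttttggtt

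The last sequence is that of Cyp1b1, shown because it and Cyp2b10 were the members at least 2-fold lower in both tissues.
Cyp1b1 (chr17:79715062-79715311, strand -): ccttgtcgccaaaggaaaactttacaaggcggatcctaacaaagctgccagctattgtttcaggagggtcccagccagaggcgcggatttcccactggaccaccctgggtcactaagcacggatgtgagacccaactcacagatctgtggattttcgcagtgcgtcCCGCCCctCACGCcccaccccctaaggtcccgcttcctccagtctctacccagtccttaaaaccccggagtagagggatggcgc

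None of the marked matches overlapped. Cyp2f2 held AGGTCA and CAAGTG, Cyp2a4 held TATAAA, Cyp4b1 held GGGCGG, Cyp2b10 held GCGTG at 2 places and Cyp1b1 held GCGTG and GGGCGG. Of 27025 promoters in the table, 13.8% held AGGTCA, 11.6% CAAGTG, 13% TATAAA, 33% GGGCGG, 28.3% GCGTG and 3.06% TGTTTAC. The same shares over the 66 members were 22.7%, 18.2%, 34.8%, 22.7%, 19.7% and 9.09%. In a global alignment the windows of Cyp2c65 and Cyp2c66 were 74.6% identical, each with TATAAA, while the other pairs of printed windows lay between 45.1% and 51.9%. These matches describe letters only.

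A large share of the P450 genes read at background in both tissues. Of the 86 members 36 were below the negative-control median on all 4 arrays and 31 were above it on all 4. These counts were not made over all genes. The level filter was passed on at least 1 array by 47 members, beside 20881 of all 30566 genes. The other 39 stayed between 3.75 and 5.96. They differed by -0.29 to 0.37 in trachea and by -0.51 to 0.51 in oviduct. The 39 belong largely to families of liver and kidney: 12 of 14 Cyp2c genes, 6 of 7 Cyp3a genes, all 4 Cyp4a genes and 4 of 8 Cyp2j genes, besides Cyp1a1, Cyp1a2, Cyp7a1 (the first enzyme of bile acid synthesis) and Cyp24a1 (which breaks down vitamin D). Hepatocyte markers were at background too, with 3 of 4 measured genes below the negative-control median on every array. The members past the filter include those that are high in only 1 group, so counts over them describe these arrays and no more.

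The first comparison concerns the P450 content of a trachea labelled as lacking Gemc1. Several P450 genes known from the airway, among them Cyp2a4, Cyp2e1, Cyp4b1 and Cyp2f2, were lower on the array labelled null, while Cyp2s1 differed by 0.06. A smaller set, among them the skin enzyme Cyp4f39 and the sterol hydroxylase Cyp27a1, was higher. Of 44 members past the filter 9 were at least 2-fold lower, beside 7.71% of all genes past the filter, and 5 were at least 2-fold higher, beside 6.34% of all genes. As shares of the members past the filter these are 20.5% and 11.4%. With levels below the negative-control median raised to it, 8 were lower and 2 higher, because Cyp2c65, Cyp2c66, Cyp3a13 and Cyp2r1 then fell short of 2-fold. The median difference of those members was 0.06, against 0.03 over all genes, and their quartiles were -0.45 and 0.38, against -0.27 and 0.28.

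Cyp2f2 read 12.83 in WT trachea and 11.59 on the trachea array labelled null, and 10.38 in WT oviduct and 10.84 on the oviduct array labelled null. It was 2.37-fold lower in trachea and 1.38-fold higher in oviduct, so its order between the genotypes differs by tissue. All 13 genes of the airway secretory list, to which Cyp2f2 belongs, were at least 2-fold lower in the same trachea comparison, with a median of -4.97. The difference of Cyp2f2, -1.24, was the smallest of the 13. Scgb1a1, the club cell secretoglobin, read 12.74 and 8.39 in trachea, and in oviduct it lay below the negative-control median at 5.32 and 5.67. Cyp2f2 was thus well above background in oviduct, where Scgb1a1 was not, and what cells carry it there was not tested.

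Cyp2a4, a steroid hydroxylase of the Cyp2a subfamily, had the largest difference among the members in trachea. It read 12.49 in WT trachea, 8.99 on the trachea array labelled null, 7.33 in WT oviduct and 8.22 on the oviduct array labelled null. The fold was 11.3 lower in trachea and 1.85 higher in oviduct. A probe set that lists Cyp2a4 together with Cyp2a5 read 12.51, 8.58, 7.32 and 7.81 in the same order. The copies are nearly identical in sequence, so the signal cannot be assigned to 1 of them.

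Cyp2e1, the ethanol-oxidising P450, read 9.81 and 6.84 in trachea, a 7.81-fold lower level on the array labelled null. In oviduct it read 7.94 and 8.39. Cyp4b1, a lung P450 that activates furan compounds, read 10.84 and 8.53 in trachea, 4.96-fold lower on the array labelled null. Its oviduct arrays read 7.32 and 7.33. For both genes, as for Cyp2a4, WT trachea was the highest of the 4 arrays, and neither was past 2-fold in oviduct.

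Cyp1b1, which hydroxylates oestrogens and retinoids outside the liver, read 7.86 in WT trachea and 5.73 on the array labelled null, at least 4.35-fold lower. Cyp2b10, the classical target of the receptor CAR, read 9.40 and 7.35, a 4.15-fold lower level. Cyp4f15 read 7.92 and 5.85, 4.20-fold lower, and in oviduct 7.80 and 7.11, 1.61-fold lower. Cyp4f18, known for oxidising the leukotriene B4 of neutrophils, read 8.13 and 6.36, a difference of -1.77, and 6.41 and 6.43 in oviduct. Cyp2r1, the vitamin D hydroxylase of the liver, read 6.15 and 4.63, close to background, and its bound was at least 1.32-fold, short of the 2-fold call.

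On the higher side, Cyp4f39, whose human relative acts in the making of skin ceramides, read 6.62 in WT trachea and 9.14 on the array labelled null, 5.71-fold higher. The oviduct arrays read 6.12 and 6.11. Cyp27a1, the mitochondrial sterol hydroxylase of bile acid synthesis, read 8.43 and 10.33 in trachea, 3.73-fold higher, and 8.26 and 8.12 in oviduct. For both genes the trachea array labelled null stands above the other 3.

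Cyp2c65, Cyp2c66 and Cyp3a13 were higher from a background level. Cyp2c65 read 4.51 in WT trachea and 6.96 on the array labelled null, at least 1.97-fold higher. Cyp2c66 read 4.46 and 6.71, at least 1.66-fold, and Cyp3a13 read 5.42 and 6.89, at least 1.88-fold. None of the 3 bounds reaches 2-fold. In oviduct the 3 genes lay between 4.57 and 4.93 on both arrays, and 12 other Cyp2c genes and 6 other Cyp3a genes stayed at background on all 4 arrays.

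**Figure D1:**
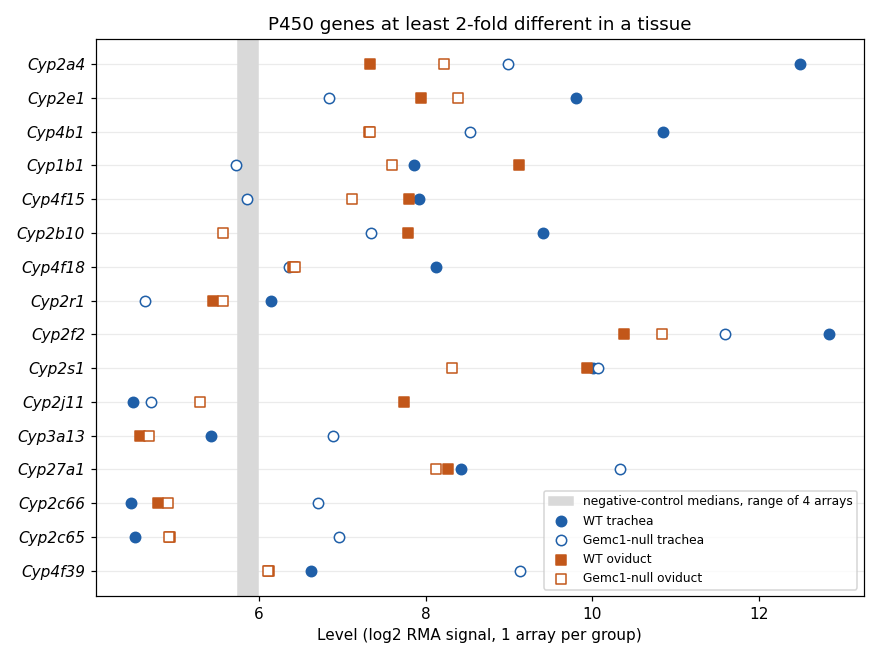
Levels (horizontal axis, log2 RMA signal) of the 16 P450 genes measured at least 2-fold apart between genotypes in a tissue, 1 point per array. Cyp2c65, Cyp2c66, Cyp3a13 and Cyp2r1 fall short of 2-fold with levels below the negative-control median raised to it. Filled symbols are WT arrays, open symbols arrays labelled Gemc1-null, circles trachea and squares oviduct; the grey band spans the negative-control medians of the 4 arrays, 5.74 to 5.98. WT trachea is the highest array for Cyp2a4, at 12.49, and the trachea array labelled null for Cyp4f39, at 9.14.

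Markers of other cells differed between the same 2 trachea arrays. The airway secretory genes had a mean level of 11.3 in WT and 6.75 on the array labelled null, where 4 of 13 were below the negative-control median, and 10 of 10 genes of multiciliated cells were at least 2-fold lower (median -3.79). Of 8 general epithelial genes, 6 were lower by 2-fold or more. Squamous epithelium genes were at least 2-fold higher in 6 of 6 (median 6.48), basal cell genes in 4 of 6 (median 1.96) and skeletal muscle genes in 8 of 8 (median 4.85). Lymphocyte genes were lower in 5 of 5 (median -4.23) and adipocyte genes in 6 of 7 (median -2.50). The part of each of these in the P450 differences was not tested.

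**Figure D2:**
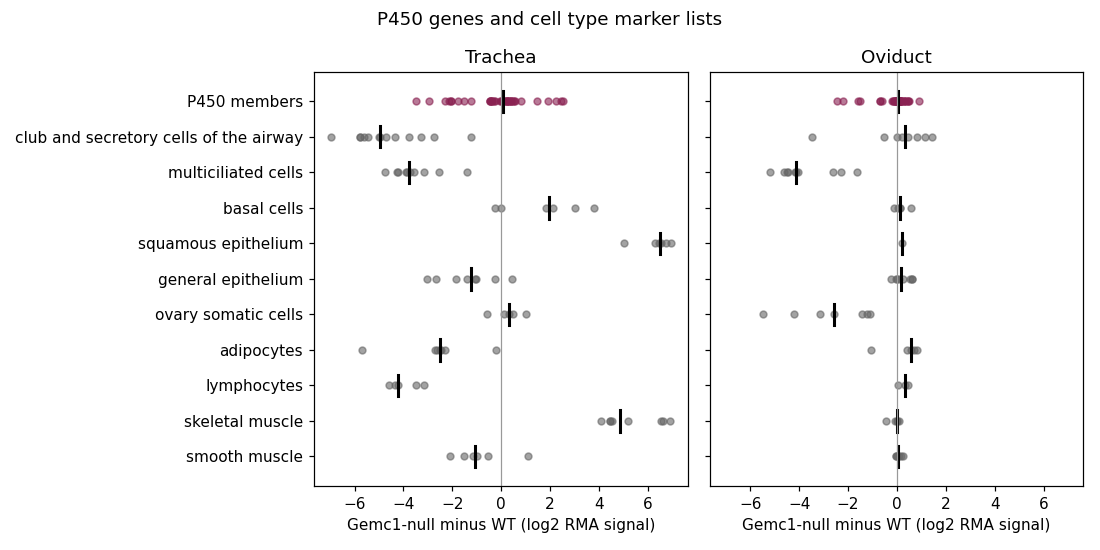
Differences between the array labelled Gemc1-null and the WT array (horizontal axis, log2 RMA signal) in trachea and oviduct, for the P450 members and 10 marker lists of cell types. Each point is 1 gene past the level filter and each black bar the list's median, which is -4.97 for airway secretory genes and 0.06 for the P450 members in trachea.

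The oviduct, the second tissue compared, is lined by multiciliated and secretory cells. Of 40 members past the filter 4 were at least 2-fold lower on the array labelled null, beside 2.74% of all genes. They were Cyp2j11, Cyp2b10, Cyp2s1 and Cyp1b1. None was at least 2-fold higher, beside 0.806% of all genes. The median difference of the 40 was 0.03, against 0.05 over all genes.

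Cyp2j11, of a subfamily that epoxidises arachidonic acid, read 7.74 in WT oviduct and 5.29 on the array labelled null, at least 3.87-fold lower. In trachea it stayed at background, with 4.49 and 4.71. Other Cyp2j genes next to it had smaller differences: Cyp2j13 read 6.16 and 5.45 in oviduct, and Cyp2j6, which was above background on all arrays, read 6.98 and 7.33. The WT oviduct array thus stands apart for Cyp2j11.

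Cyp2b10 read 7.79 in WT oviduct and 5.56 on the array labelled null, at least 3.98-fold lower. Cyp2s1, a P450 of epithelia at body surfaces, read 9.93 and 8.32, 3.05-fold lower. In trachea Cyp2s1 read 10.01 and 10.07, so that the oviduct array labelled null is the low one of the 4. Cyp1b1 read 9.12 and 7.60 in oviduct, 2.86-fold lower.

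Ovary somatic cell genes were at least 2-fold lower on the same oviduct array in 7 of 7 members past the filter (median -2.56), from a mean level of 8.90 to 6.16, and 3 of 7 were then below the negative-control median. Oocyte genes were lower in 4 of 5. The brighter of 2 probe sets of Cyp11a1, the first enzyme of steroid synthesis and no member here, read 12.05 in WT oviduct and 5.71 on the array labelled null, and Fdx1, the ferredoxin that feeds it electrons, 8.24 and 5.78. Genes of multiciliated cells were lower in 10 of 10 (median -4.15), and general epithelial genes in 0 of 8. What part ovarian tissue or multiciliated cells have in the 4 P450 differences was not tested.

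Between the tissues, 37 members passed the filter in both. Cyp1b1 and Cyp2b10 were at least 2-fold lower in both, 5.41% of the 37, beside 1.3% of all genes past both filters. None of the 37 was at least 2-fold higher in both or 2-fold different in opposite directions. A limma fit over the 4 arrays with tissue as a block asked for a genotype difference shared by the tissues. It has 1 residual degree of freedom, the disagreement of the tissues. Of 47 members tested 0 passed a limma adjusted p of 0.05, as did 0% of 20881 genes. At an unadjusted p under 0.05 there were 2 members lower, beside 2.69% of all genes, and 0 higher, beside 0.805%.

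The 2 were Cyp2b10, with a shared difference of -2.14 (SE 0.156, limma adjusted p = 0.533), and Cyp1b1, with -1.83 (SE 0.238, limma adjusted p = 0.679). Both were lower in 2 of 2 tissues, which a low p-value in this fit favours, since its residual is the disagreement of the tissues. After adjustment neither passed. By p-value Cyp2b13, Cyp4f15 and Cyp2b9 came next, with -0.53, -1.38 and -0.39 (limma adjusted p = 0.829 for each). Cyp2b13 and Cyp2b9, neighbours and relatives of Cyp2b10, read between 5.35 and 6.40 on the 4 arrays, near background, and related copies can share probe signal. Cyp2f2 had a shared difference of -0.39 (SE 0.534, limma adjusted p = 0.865), the average of a lower level in trachea and a higher one in oviduct.

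**Figure D3:**
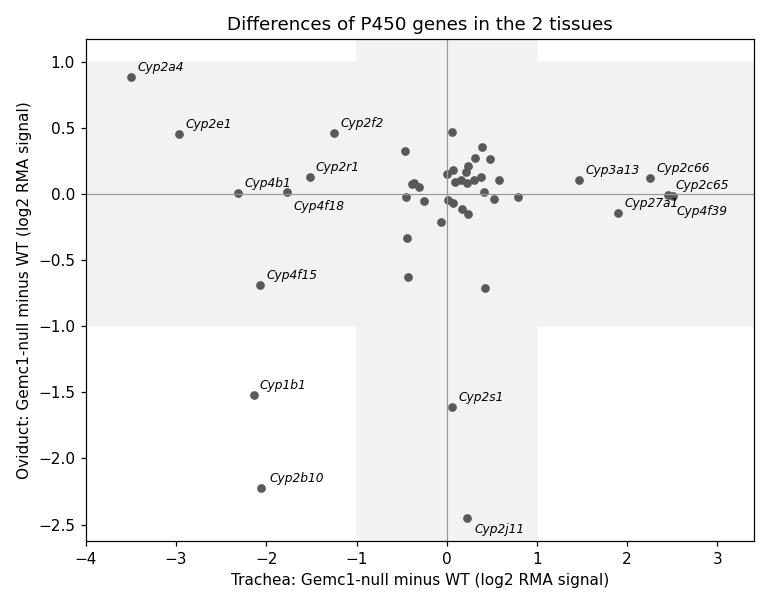
Difference between the array labelled Gemc1-null and the WT array in oviduct (vertical axis) against that in trachea (horizontal axis), log2 RMA signal, 1 point per P450 gene past the level filter in a tissue. Grey bands mark measured differences under 2-fold, and genes past it are named. Cyp1b1 and Cyp2b10 lie past 2-fold in both tissues, with -2.14 and -2.05 in trachea.

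The comparison of WT trachea with WT oviduct asks where the enzymes are normally found. Cyp2a4 and Cyp4b1 were among the genes higher in trachea, and Cyp26a1, Cyp1b1 and Cyp2j11 among those higher in oviduct. Of 41 members past the filter 6 were at least 2-fold higher in WT trachea, beside 6.53% of all genes, and 5 at least 2-fold lower, beside 4.65%. These differences use the same WT arrays as the genotype comparisons, so the 2 sets of values are not independent. Under the wider symbol rule 10 were higher and 5 lower, with Cyp4a12a, Cyp4a12b and 2 Cyp4b1 pseudogenes added. Markers of other cells differed between the same arrays: adipocyte genes were at least 2-fold higher in WT trachea in 6 of 7 (median 2.19), lymphocyte genes in 5 of 5 (median 3.83) and airway secretory genes in 11 of 13 (median 5.28). Ovary somatic cell genes were lower there in 6 of 7 (median -2.28). Their part in the P450 differences was not tested.

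Higher in WT trachea were Cyp2a4 (35.8-fold), Cyp4b1 (11.5-fold), Cyp2f2 (5.49-fold), Cyp2e1 (3.64-fold), Cyp4f18 (3.29-fold) and Cyp2b10 (3.07-fold). Each is given with its 4 levels above. Higher in WT oviduct were Cyp2j11 (at least 3.38-fold, and below the negative-control median on the other oviduct array), Cyp26a1 (4.65-fold), Cyp1b1 (2.38-fold), Cyp2d22 (2.28-fold) and Cyp2j13, whose bound was at least 1.13-fold. Cyp26a1, which breaks down retinoic acid, read 6.34 and 6.35 on the trachea arrays and 8.56 and 8.71 on the oviduct arrays. Cyp2d22 read 8.20 and 8.43 in trachea and 9.38 and 9.23 in oviduct. Both genes were picked by their WT difference, and the genotypes differed little within each tissue.

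The tissue term of the same limma fit, with genotype as a block, compared the tissues over 2 arrays each, including those labelled null. It is therefore no test of the WT differences alone. For Cyp2e1 the term was 0.16, against 1.87 between the WT arrays, and for Cyp2a4 2.97, against 5.16. No member of 47 passed adjustment, as did 0% of all genes. At an unadjusted p under 0.05 there were 4 members lower in trachea, beside 7.41% of all genes, and 2 higher, beside 3.82%. The lowest p-values were those of Cyp26a1 (trachea minus oviduct -2.29, SE 0.154, limma adjusted p = 0.290), Cyp2b10 (1.70, SE 0.156, limma adjusted p = 0.298), Cyp1b1 (-1.56, limma adjusted p = 0.339), Cyp39a1 (-0.96, limma adjusted p = 0.339) and Cyp2d22 (-0.99, limma adjusted p = 0.366). For Cyp2f2 the tissue term was 1.60 (SE 0.534, limma adjusted p = 0.457).

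The P450s with defined body substrates are given next by role. Over all genes past the filter, 14.1% reached 2-fold in either direction in trachea and 3.54% in oviduct. At these shares 0 calls in a list of a few genes say little about its role. Among the retinoic acid P450s 3 of 3 passed the filter and 0 reached 2-fold in either tissue. Cyp26b1 read 6.69 and 7.07 in trachea and 6.64 and 6.76 in oviduct, and Cyp26c1 stayed between 6.55 and 6.72 on all arrays. Of the bile acid and oxysterol P450s 4 of 5 passed and 0 reached 2-fold, in a list that leaves Cyp27a1, 3.73-fold higher in trachea, to the vitamin D list. Cyp7b1, the oxysterol hydroxylase, differed by 0.06 in trachea and 0.47 in oviduct, Cyp39a1, another oxysterol hydroxylase, by 0.32 and 0.27, Cyp46a1, the cholesterol hydroxylase of brain, by 0.58 and 0.10, and Cyp8b1 by 0.01 and -0.05.

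Of the vitamin D P450s, 3 of 4 passed in trachea, with Cyp27a1 at least 2-fold higher and Cyp2r1 lower as given above, and 1 of 4 in oviduct. Cyp27b1, the activating hydroxylase, read 5.67 to 5.97, near background and above the negative-control median on 3 of the 4 arrays. The corticosteroid P450s Cyp11b2 and Cyp21a1 read 5.83 to 6.07 and 6.24 to 6.47. Of these 0 were past 2-fold, beside 14.1% of all genes in trachea and 3.54% in oviduct. The orphan and fatty acid P450s Cyp20a1, Cyp2u1 and Cyp2w1 differed by 0.16, 0.07 and 0.52 in trachea and by -0.11, -0.06 and -0.04 in oviduct. Of the remaining list, 6 of 7 airway and foreign-compound P450s past the filter were lower by 2-fold or more in trachea (median -2.14), beside 7.71% of all genes, and 3 of 7 in oviduct (median 0.00), beside 2.74%. That list was drawn up with earlier results of these data known and is no independent evidence of its direction.

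Many P450 genes lie in tandem arrays of copies, and neighbours differed from one another. Around Cyp2f2 on chromosome 7 RefSeq places 12 members in 1 run, from Cyp2s1 through the Cyp2b and Cyp2a genes to Cyp2t4. In trachea 8 of the 12 passed the filter, and 3, Cyp2b10, Cyp2a4 and Cyp2f2, were at least 2-fold lower, beside 7.71% of all genes. In oviduct 6 passed, and 2, Cyp2s1 and Cyp2b10, were lower, beside 2.74%. Cyp2b19, a P450 known from keratinocytes, differed by 0.48 in trachea and 0.27 in oviduct. The genes Cyp2a12, Cyp2a22, Cyp2g1 and Cyp2t4 did not pass in either tissue.

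**Figure D4:**
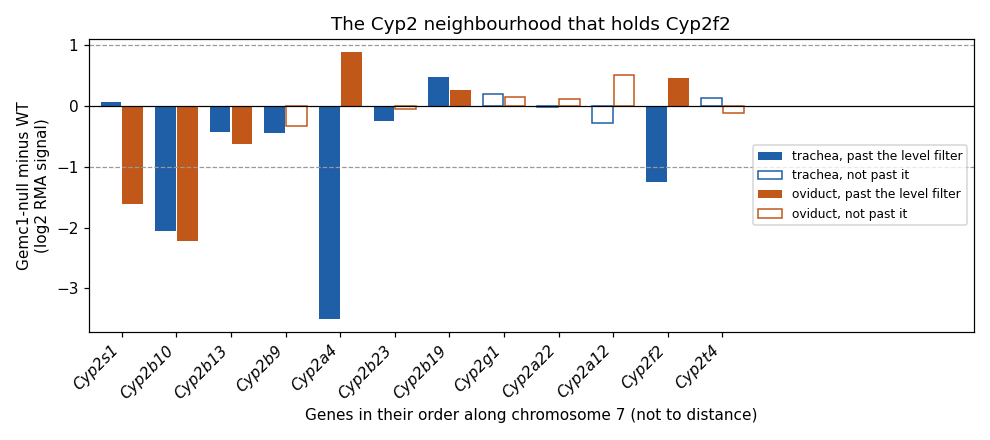
Difference between the array labelled Gemc1-null and the WT array (vertical axis, log2 RMA signal) for the 12 P450 members in the run around Cyp2f2, in chromosome order without distances. Filled bars passed the level filter, open bars did not, and dashed lines mark 2-fold. Cyp2a4 has the longest bar, -3.50 in trachea, next to relatives that stay under 2-fold.

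In the Cyp4f run on chromosome 17, 7 of 8 members passed the filter in trachea. Of these 1 was at least 2-fold higher (Cyp4f39), beside 6.34% of all genes, and 1 lower (Cyp4f15), beside 7.71%. The remaining ones past the filter there were Cyp4f13 (8.72 and 8.26), Cyp4f16 (7.24 and 6.86), Cyp4f17 (7.58 and 7.22), Cyp4f37 (6.77 and 6.46) and Cyp4f40 (6.49 and 6.04), each a little lower on the array labelled null. In the Cyp2d run on chromosome 15, 5 of 8 members passed in trachea and 6 in oviduct. Of these 0 were past 2-fold, beside 14.1% of all genes in trachea and 3.54% in oviduct. The Cyp2c run on chromosome 19 had 13 members, of which Cyp2c65 and Cyp2c66 alone passed the filter.

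On chromosome 4 the run that ends in Cyp4b1 holds 6 members, and Cyp4b1 alone passed. Its neighbours outside the symbol rule differed as well, and they were singled out after their values were seen. Cyp4a12b, a fatty acid hydroxylase, read 9.45 in WT trachea, 5.11 on the trachea array labelled null, 5.29 in WT oviduct and 5.49 on the oviduct array labelled null. Cyp4a12a, its near-identical copy, read 8.33, 4.85, 5.17 and 5.43. Against background Cyp4a12b was at least 13.0-fold lower in trachea and Cyp4a12a at least 6.01-fold. The pseudogenes Cyp4b1-ps1 and Cyp4b1-ps2 differed by -1.41 and -1.46 in trachea, beside -2.31 for Cyp4b1, and reads of such copies cannot be told apart with certainty.

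The partners and regulators of P450s were read from lists drawn up for this purpose. Among redox partners and haem genes 1 of 7 past the filter was at least 2-fold lower in trachea, Alas1, the first enzyme of haem synthesis, which read 10.24 and 8.33 there and 8.84 and 8.95 in oviduct. Pgrmc1, a haem-binding partner of P450s, differed by -0.98 and -0.09, and cytochrome b5, Cyb5a, by -0.62 and -0.53. In oviduct 1 of 8 was at least 2-fold lower, Fdx1, as given above. P450 reductase (Por) was not among the genes with a probe set of their own. These counts stand beside 7.71% of all genes lower in trachea and 2.74% in oviduct.

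None of 14 regulators past the filter reached 2-fold in either tissue, with list medians of 0.06 and 0.07. Over all genes past the filter 14.1% reached 2-fold in either direction in trachea and 3.54% in oviduct. Ahr, the aryl hydrocarbon receptor, differed by -0.22 in trachea and 0.05 in oviduct. Nr1i3, which encodes CAR, stayed between 5.41 and 5.52, below the negative-control median on all arrays. Nr1i2, the pregnane X receptor, differed by -0.44 and -0.69, and Vdr, the vitamin D receptor, by 0.64 and 0.17. Rara, a retinoic acid receptor, differed by -0.66 and 0.09.

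Other oxidising and hydrolysing enzymes split in both directions. In trachea, among 19 that passed, 5 were lower and 3 higher by 2-fold or more (median -0.23), beside 7.71% and 6.34% of all genes. Aox3, an aldehyde oxidase, read 8.92 and 5.49, the latter below the negative-control median, Aldh1a1, a retinal dehydrogenase, 12.30 and 9.88, and Nqo1, a quinone reductase, 5.94 and 8.75. In oviduct 2 of 19 were lower, Ephx2 (9.37 and 7.14), the epoxide hydrolase that acts on the products of the Cyp2j and Cyp2c enzymes, and Aldh1a1 (10.15 and 8.07), and 2 were higher, Adh7 (8.31 and 10.70) and Adh1 (9.58 and 10.62). Over all genes 2.74% were at least 2-fold lower in oviduct and 0.806% higher. Aox3 read 8.53 and 9.53 in oviduct, opposite to trachea and just under the 2-fold call.

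Conjugating enzymes had 3 of 11 at least 2-fold lower and 2 higher in trachea (median -0.40), beside 7.71% and 6.34% of all genes. In oviduct 0 of 10 were past 2-fold (median 0.10), beside 2.74% of all genes lower and 0.806% higher. Gsta3, a glutathione transferase, read 8.86 and 6.70 in trachea. Sult1d1, a sulfotransferase, differed by -1.91. Sult1c1 read 6.24 and 4.59, the latter below the negative-control median of 5.74. Its measured difference counts among the 3, but with that median in place of 4.59 it falls short of 2-fold. In oviduct Gsta3 read 6.96 and 7.86. Of the 3 P450s whose names fall outside the rule, Cyp51, the sterol demethylase of cholesterol synthesis, read 6.86 and 7.49 in trachea and 7.39 and 6.55 in oviduct. Ptgis differed by -0.12 and -0.28, and Tbxas1 by -0.09 and 0.08.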

How the data were processed

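Total RNA of 4 tissue samples was measured on 1-colour Affymetrix arrays, 1 array per group. The deposited table gives 1 log2 value per probe set, made by the authors with RMA per the submitters' processing notes. RMA corrects background, quantile-normalizes arrays and summarises probes; no version or settings are named in the sources. A further log2 was found in the deposited values, since 2 raised to them had 6 significant digits in 100% of cells (relative tolerance 1e-09), against 0.0805% for powers of 10. That number was used as the log2 RMA signal. Array medians were 2.56 to 2.59 as deposited.

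Of 72688 probe sets 6732 are controls. The platform annotation, updated through RefSeq GRCm38.p6, gave 1 gene to 31097 of 65956 transcript clusters, several genes to 1653, which stayed unnamed, and did not list 33206. Of 30566 genes, 428 had several probe sets, and the 1 with the highest mean was used. Genes passing the level filter (array median, percentile 50) numbered 20061 in trachea and 19606 in oviduct. Calls are by size, at least 2-fold (log2 difference 1). limma 3.58.1 in R 4.3.3 was fitted to all genes past the filter on an array, with Benjamini-Hochberg adjustment, and was tested on simulated data. Self-made steps used Python 3.11.15 and Biopython 1.88.

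The members and lists were chosen with earlier results of these data known. Named members are Cyp2f2, the 8 largest differences past 2-fold per direction and comparison, the 10 highest on any array, role-list members past the filter, and the 5 lowest limma p-values per term; pathway genes are the 3 largest differences per list and tissue, with others added after their values were seen.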

Additional observations from a re-analysis of the deposited data

Results flagged for a closer look

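Among the 37 members past the level filter in both tissues, 8 differed at least 2-fold in 1 tissue with a difference of opposite sign in the other. The same count over all genes was not made, so the 8 are a list with no share to set beside it. The difference between tissues was not tested, since there is 1 array per group, and its value is the trachea difference minus the oviduct difference in log2. It was -4.38 for Cyp2a4 (-3.50 in trachea and 0.89 in oviduct), -3.42 for Cyp2e1 (-2.97 and 0.45) and -1.71 for Cyp2f2 (-1.24 and 0.46). For the others the opposite sign rests on a difference near 0 in 1 tissue. It was -2.32 for Cyp4b1 (oviduct 0.00), -1.78 for Cyp4f18 (oviduct 0.02), 2.52 for Cyp4f39 (oviduct -0.01), 2.04 for Cyp27a1 (oviduct -0.14) and 1.67 for Cyp2s1 (trachea 0.06).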

How the results depend on the processing

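Counts are of members at least 2-fold lower or higher together, 14 in trachea, 4 in oviduct and 11 between the WT tissues. With the 95th percentile of the negative controls as the level filter they were 7, 2 and 7, over 8, 6 and 10 members that passed; fewer genes are tested there. At a 1.5-fold threshold the oviduct count was 8 (7 lower and 1 higher). The trachea count was 10 (8 lower and 2 higher, against 9 and 5) with levels raised to the negative-control median and 18 under the wider symbol rule, which adds Cyp4a12a, Cyp4a12b and 2 Cyp4b1 pseudogenes, and these totals, like those of all other alternatives in the 3 comparisons, stayed within 1.5 times. By direction, the wider rule took the count higher in WT trachea from 6 to 10, and raised levels took the count higher in trachea from 5 to 2. Centring on the negative controls moved the median of all genes from 0.03 to 0.27 in trachea and from -0.02 to -0.23 between the WT tissues. With levels raised to background Cyp2c65 (0.98), Cyp2c66 (0.73), Cyp3a13 (0.91) and Cyp2r1 (-0.40) in trachea, and Cyp2j13 (-0.18) between WT tissues, were under 2-fold. With centring on the negative controls Cyp39a1 (-1.19) passed it between WT tissues. No named difference past 2-fold changed sign. In limma 0 members passed adjustment under every alternative for genotype and tissue, with lowest adjusted p-values over members of 0.436 to 0.998 for genotype and 0.115 to 0.339 for tissue. No paired analysis was possible because each group has 1 array and the labels give no replicate numbers, and leaving out an array leaves no residual degrees of freedom.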
